A study of Bos taurus with 12 samples.

Results

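The regions described here are N6-methyladenosine (m6A) peaks annotated to a 3′ untranslated region (3′UTR). They were found both in proliferating bovine myoblasts and in the myotubes these cells formed. The annotation is that of the myotube peak, and many peaks ran over several exons, as given below. The regions were chosen by a peak call in both groups of cells, with no further use of peak height. A call itself needs enrichment by the m6A antibody, and peaks called in only 1 group are left out. Likeness of enrichment between the groups is thus partly set by the rule. A pair was kept where exactly 1 peak of the myoblast list and exactly 1 peak of the myotube list shared at least 1 base of exon on the same strand, where neither overlapped a further peak of the other list, and where the myotube peak was annotated to a 3′UTR. This gave 5146 pairs out of 10239 pairs of every annotation, or 50.3%. They lay in 4656 genes on 29 chromosomes. Of the peaks annotated to a 3′UTR, the pairs took up 57.4% of 8418 in the myoblast list and 54.7% of 9409 in the myotube list.

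The cells were primary myoblasts from the longissimus dorsi, the long muscle of the back, of a newborn Qinchuan calf (Bos taurus). The GM group was harvested while proliferating, at 80% confluence in growth medium with 20% fetal bovine serum. The DM group was harvested after 4 days in differentiation medium with 2% horse serum, when myotubes had formed. The labels name no edited gene and no added agent. Each group had 3 replicate samples, each giving an input library of poly(A) RNA fragments and a library of fragments immunoprecipitated (IP) with an antibody against m6A, 12 libraries in all. The study calls the replicates biological and describes the isolation of cells from a single calf, so p-values measure the spread between these samples and not between animals.

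N6-methyladenosine is placed on mRNA in the nucleus by a methyltransferase complex built around METTL3 and METTL14, can be removed by FTO and ALKBH5, and is bound by readers such as the YTH domain proteins. It gathers around stop codons and in 3′UTRs, where it is known to affect the decay, translation and polyadenylation of the transcript. In muscle the differentiation of myoblasts runs through MYOD1 and myogenin, withdrawal from the cell cycle, fusion, and assembly of the sarcomere.

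MYOD1, the transcription factor that commits cells to the muscle lineage, shows what a pair holds. Its GM peak at chr15:34794122-34794982 and its DM peak at chr15:34794122-34795012 (ARS-UCD1.2, minus strand) both ended exactly at the annotated end of the transcript. Fold enrichment, the ratio of IP over input reads in a peak computed on the pooled libraries of a group, was 3.12 in GM and 4.57 in DM, a ratio of 1.46. Its mRNA in the inputs, in FPKM (fragments scaled to exon length and to library size), was 57.8, 61.2 and 65.7 in GM and 24.2, 24.0 and 26.1 in DM. All 3 DM samples were below all 3 GM samples, and the mRNA fell by 1.28 ± 0.06 (SE) on the log2(FPKM + 1) scale (limma, Benjamini-Hochberg adjusted p = 2.23e-06). The study lists the following primers, 5′ to 3′, for quantitative PCR of MYOD1 after m6A immunoprecipitation, and they are shown as the designed sequences that target this member.
MYOD1 forward: gcccctcgggctgtatttat
MYOD1 reverse: ttcgaacacctgagcgagc
Their place within the peak was not determined here.

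The myoblast markers PAX7, MYF5, MYOD1 and ITGA7 were lower in DM, while DES, CDH15 and NCAM1 were not called. Of the myotube markers, MYH3, MYH8, CKM and TNNT3 were higher, ACTA1 was lower, and MYOG, MYMK and MYMX were not called. MYOG already stood at 190 to 207 FPKM and MYH3 at 270 to 275 FPKM in the GM samples. Fibroblast markers were abundant in every sample, with a sum over 7 genes of 13590 to 13830 FPKM in GM and 13890 to 14660 FPKM in DM, led by COL1A1 and COL1A2, and none of the 7 was called. Adipocyte, endothelial and immune markers summed to at most 2.75, 0.653 and 1.96 FPKM in any sample, and of them only PPARG was called, lower in DM. In such bulk samples fewer cells of a type and less RNA per cell cannot be told apart.

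Enrichment was moderate in most 3′UTR peaks and similar in the 2 lists. The median fold enrichment was 3.75 in GM (quartiles 2.46 and 5.99) and 3.96 in DM (quartiles 2.60 and 6.24), and the highest values were 92.6 and 76.7. Each peak has 1 pooled value per group, so no value of fold enrichment carries an error and none was tested. Across the 5146 pairs, Pearson's r between the lists was 0.763 on log2 values, as a description of pairs that share libraries and peak caller. The median was above that of the 1882 pairs in 5′UTRs (3.51 and 3.83) and of the 604 pairs in last exons (3.53 and 3.81), and the 2607 pairs in earlier exons had 2.69 and 2.80.

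Most members, which by the rule had a call in both lists, kept their fold enrichment within 1.5 times between the groups. It was over 1.5 times higher in DM in 744 pairs (14.5%) and over 1.5 times lower in 602 pairs (11.7%), beside 14.2% and 10.8% of all 10239 shared pairs. The shares of the 3′UTR pairs are thus near those of all pairs. Past a ratio of 2 there were 267 pairs higher and 245 lower. The median log2 ratio was 0.09, and 90% of the pairs fell between -0.98 and 1.03.

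**Figure D1:**
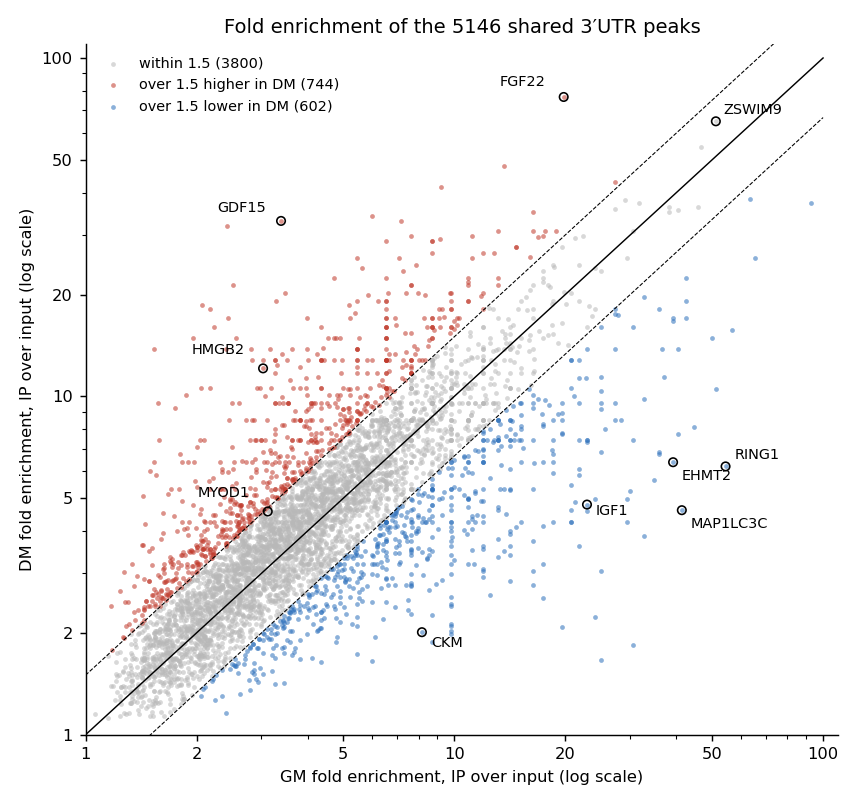
Fold enrichment of IP over input of each of the 5146 pairs in GM (x axis, log scale) and DM (y axis, log scale), 1 point per pair, with equality as a solid line and ratios of 1.5 dashed. The 744 red pairs were over 1.5 times higher in DM and the 602 blue pairs over 1.5 times lower, with ZSWIM9 high in both lists and GDF15 and RING1 far from the line; points at GM values such as 6.53 and 9.8 stack in columns.

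Pairs are called comparable if they overlapped by at least 50% of both peaks at a false discovery rate under 0.001 in both lists. There were 3682. Pairs named for their mRNA or within a gene list were not held to this. The pairs of CACNG1, CDC6, CENPA, EGR3, FGFR4, ID1, METTL14, MKI67, MXD3, MYLIP, NR4A1, PODN, SFRP1, SSU72 and TMEM182 named below are not comparable. Nor is at least 1 pair each of AXIN2, BMP2, GINS4, MEIS3, NTRK2, SORCS3 and SREBF2. Of the comparable pairs, ZSWIM9 had the highest fold enrichment by the geometric mean of both lists. Its peak at chr18:54914477-54916962 (plus strand) was the same in both lists, 2486 bases long, and had a fold enrichment of 51.2 in GM and 65.0 in DM. LPCAT1, an acyltransferase that remodels phosphatidylcholine, likewise had 1 identical peak at chr20:71046906-71048066 (plus strand), with 46.7 and 54.7. INHBE, which encodes an activin subunit, had 63.2 in GM and 38.3 in DM at chr5:56005014-56006234 (minus strand, DM peak). The unnamed gene ENSBTAG00000009029 had 45.7 and 36.2. In all 4 the peak reached exactly to the annotated transcript end. The mRNA of INHBE fell, from 5.34 ± 0.69 to 1.16 ± 0.085 FPKM, and that of LPCAT1 from 25.6 ± 1.7 to 15.4 ± 0.82 FPKM (SD, n = 3).

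Among comparable pairs in tested genes, GDF15 had the largest ratio of DM over GM. GDF15, a secreted stress cytokine of the TGF-β superfamily, had a fold enrichment of 3.39 in GM and 33.0 in DM at chr7:4778258-4778999 (minus strand, DM peak), a ratio of 9.73. Its mRNA was 6.78, 6.61 and 6.61 FPKM in GM and 6.48, 8.55 and 7.69 FPKM in DM, so the groups overlapped and no difference was called (adjusted p = 0.205). The next were IPO9, a nuclear import receptor, with 3.29 and 19.2, GDPD3, a lysophospholipase D, with 5.99 and 34.1, SHB, an adaptor of tyrosine kinase signalling, with 4.72 and 22.4, and C5H22orf23 with 3.17 and 13.8. None of these 5 genes was called for mRNA.

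In the other direction MAP1LC3C, an autophagosome membrane protein, had the largest ratio among these pairs, with 41.4 in GM and 4.61 in DM at chr16:34937151-34937870 (minus strand, DM peak), 8.98 as GM over DM. It was followed by RING1, a ubiquitin ligase of Polycomb complex 1, with 54.4 and 6.21 (chr23:7396849-7399514, plus strand). PPP1R16A, a subunit that directs protein phosphatase 1, had 32.7 and 3.87. PLCD3, a phospholipase C, had 29.4 and 4.26.

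EHMT2, the histone H3 methyltransferase G9a, had a lower fold enrichment in DM over a peak of identical extent and at a like mRNA level. Its peak at chr23:27479878-27480388 (plus strand) had the same 511 bases in both lists, with a fold enrichment of 39.2 in GM and 6.39 in DM, a GM over DM ratio of 6.13. Both values lie, at 3 digits, on the steps at which fold enrichments repeat, described below. The part of few reads in this ratio was not tested. The mRNA was 8.78, 8.66 and 8.32 FPKM in GM and 8.94, 8.84 and 8.12 FPKM in DM, fully overlapping groups (adjusted p = 0.945). Of these 5 genes with a lower fold enrichment in DM, MAP1LC3C was called for mRNA, lower in DM, and the other 4 were not.

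Peaks of the members were longer in DM. The median exon length was 420 bases in GM and 540 bases in DM, and the DM peak was longer in 3518 pairs (68.4%), shorter in 1140 and equal in 488. Pairs of all annotations gave a like share, 67.0% longer. The study's read totals differ between libraries, and the lowest of the IP libraries belongs to GM. The part of sequencing depth in the lengths was not tested. A single exon block made up 60.1% of the GM peaks and 53.8% of the DM peaks, beside 34.6% and 26.6% in 5′UTR pairs and 88.1% and 93.5% in last-exon pairs. The remaining peaks ran over more than 1 block, as in CASQ2 with 6 in both lists. Their fold enrichment is that of all their blocks, and any part outside the 3′UTR was not determined. At the 3′ side, 2622 DM peaks (50.95%) ended exactly at the end of the annotated transcript, beside 12.4% of 5′UTR pairs and 45.0% of last-exon pairs. A further 1256 ended 1 to 1000 bases before it, 766 up to 10000 bases before it, 93 more than 10000 bases before it, and 409 past it.

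The label of a 3′UTR held in both lists for most pairs. The GM peak of a pair was also annotated to a 3′UTR in 4828 pairs, to an exon in 297 and to a 5′UTR in 21, and 12 pairs were assigned to different genes in the 2 lists.

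The ratio of fold enrichment moved with the change in length, and its spread, not its median, with the amount of mRNA. Where the DM peak was over 1.5 times as long (1382 pairs), 25.7% had a higher fold enrichment in DM and 5.43% a lower one, with a median log2 ratio of 0.30. Where it was under 1/1.5 of the GM length (248 pairs), 14.1% were higher and 37.1% lower, with a median of -0.40. In the 3516 pairs of like length 10.1% were higher and 12.4% lower, so the excess of higher over lower pairs was absent there. The 410 pairs of identical extent gave 29 higher and 60 lower.

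In genes under 0.5 FPKM or with no FPKM, 29.8% of 460 pairs were higher and 24.1% lower, and these shares were smaller in each class of more abundant mRNA, down to 5.26% and 2.87% of 209 pairs at 100 FPKM or more. The median log2 ratio lay between 0.06 and 0.11 in all 5 classes. The median fold enrichment was lower in each class of more mRNA, from 6.93 in GM and 7.45 in DM to 2.70 and 2.85. The values themselves repeat: among fold enrichments from 2 to 10, 8.98% of GM values were whole multiples of 1.089 and 8.77% of DM values whole multiples of 1.065, equal at the 3 digits given, with both steps read from the data. In genes under 0.5 FPKM these shares were 41.6% and 36.2%, and at 20 FPKM or more 2.63% and 2.54%. Read counts of the peaks were not analysed here, and the part of few reads in these ratios was not tested.

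**Figure D2:**
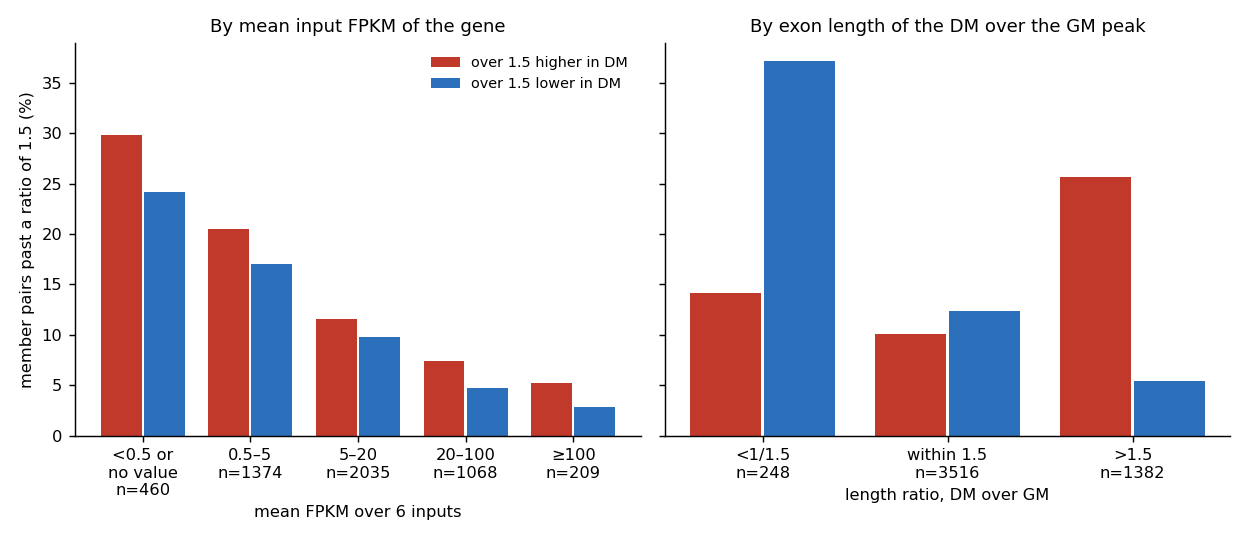
Share of member pairs (%) with a fold enrichment over 1.5 times higher (red) or lower (blue) in DM, by the gene's mean input FPKM (left) and by the exon length of the DM peak over the GM peak (right), with the number of pairs under each class. The share past 1.5 is 29.8% and 24.1% in the class of least mRNA and 5.26% and 2.87% in that of most, and the longer peaks lean to higher and the shorter peaks to lower values.

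The mRNA of the genes with a shared 3′UTR peak changed about as often as that of all genes. Of the 4656 genes, 4639 were in the FPKM table, 4230 had a mean of at least 0.5 FPKM and were tested, and 409 were below it. At an adjusted p under 0.05 and a fold change over 1.5 by limma, 199 of the tested members (4.70%) were higher in DM and 254 (6.005%) lower, beside 4.89% and 6.88% of all 12302 tested genes. With FPKM rescaled to the same total in every sample (TPM), the counts of members were 342 and 240. This moved the all-gene median on the log2 scale by 0.11. The pseudocount of 1 and the filter of 0.5 were kept and weigh differently at that scale, so the counts do not show scaling alone. With FPKM divided by median-of-ratios size factors the counts were 232 and 216. The split between higher and lower thus turned under both scalings, for which shares of all genes are not given here. The FPKM of the groups did not overlap in 58.3% of the tested members, beside 54.1% of all tested genes. The median log2 fold change was -0.05 in members and in all genes.

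On the log2(FPKM + 1) scale the largest rises among members were in C1S, MEF2C, C1R, PODN and TMEM182. C1S and C1R are the serine proteases that start the classical complement cascade. C1S had 3.64, 4.47 and 3.99 FPKM in GM and 49.7, 52.0 and 50.4 FPKM in DM, and rose by 3.36 ± 0.07 (SE) on the log2 scale (adjusted p = 8.95e-08). C1R went from a mean of 2.26 ± 0.29 to 25.2 ± 1.1 FPKM (SD, n = 3). The fold enrichment of their 3′UTR peaks was low and close in both groups, 2.11 and 1.83 in C1S and 2.44 and 2.07 in C1R.

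MEF2C, a transcription factor that acts with the MYOD family on muscle promoters, had 7.50, 8.04 and 7.84 FPKM in GM and 71.2, 68.2 and 70.9 FPKM in DM. The groups were far apart, at a log2 fold change of 3.02 ± 0.05 (adjusted p = 2.36e-08), and fold enrichment of the peak was 1.91 in GM and 2.44 in DM. TMEM182, a muscle membrane protein, rose from 1.03 ± 0.40 to 13.5 ± 0.56 FPKM, with a fold enrichment of 2.11 and 2.25. PODN, a small leucine-rich proteoglycan, rose from 2.27 ± 0.31 to 23.0 ± 1.2 FPKM, with a fold enrichment of 12 in GM and 3.04 in DM.

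On the same scale the largest falls were in IGFBP5, MKI67, ID1, CENPA and CENPF. IGFBP5, which binds insulin-like growth factors, had 106, 103 and 89.0 FPKM in GM and 7.27, 8.96 and 6.66 FPKM in DM, and fell by 3.54 ± 0.11 on the log2 scale (adjusted p = 2.64e-07). It held 2 pairs, with a fold enrichment of 1.61 and 2.03 in the one and 1.65 and 1.90 in the other. ID1, an inhibitor of MYOD1's dimerisation, had 15.3, 17.4 and 18.1 FPKM in GM and 0.998, 1.27 and 1.52 FPKM in DM, with a fold enrichment of 1.96 and 2.89. MKI67, the Ki-67 proliferation antigen, had 18.7, 18.3 and 16.5 FPKM in GM and 0.772, 1.1998 and 0.712 FPKM in DM. Its fold enrichment was 10.2 over 929 bases in GM and 11.7 over 300 bases in DM. In all 5 genes the DM samples lay below the GM samples with no overlap. The scale sets this order, since it understates changes of scarce mRNA. By the ratio of mean FPKM the fall was 46.2-fold in FGFR4 and 13.0-fold in IGFBP5, and the rise was 10.6-fold in SFRP1 and 8.99-fold in MEF2C. CCKAR, a cholecystokinin receptor, had a mean of 0.0165 FPKM in GM and 2.94 FPKM in DM.

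**Figure D3:**
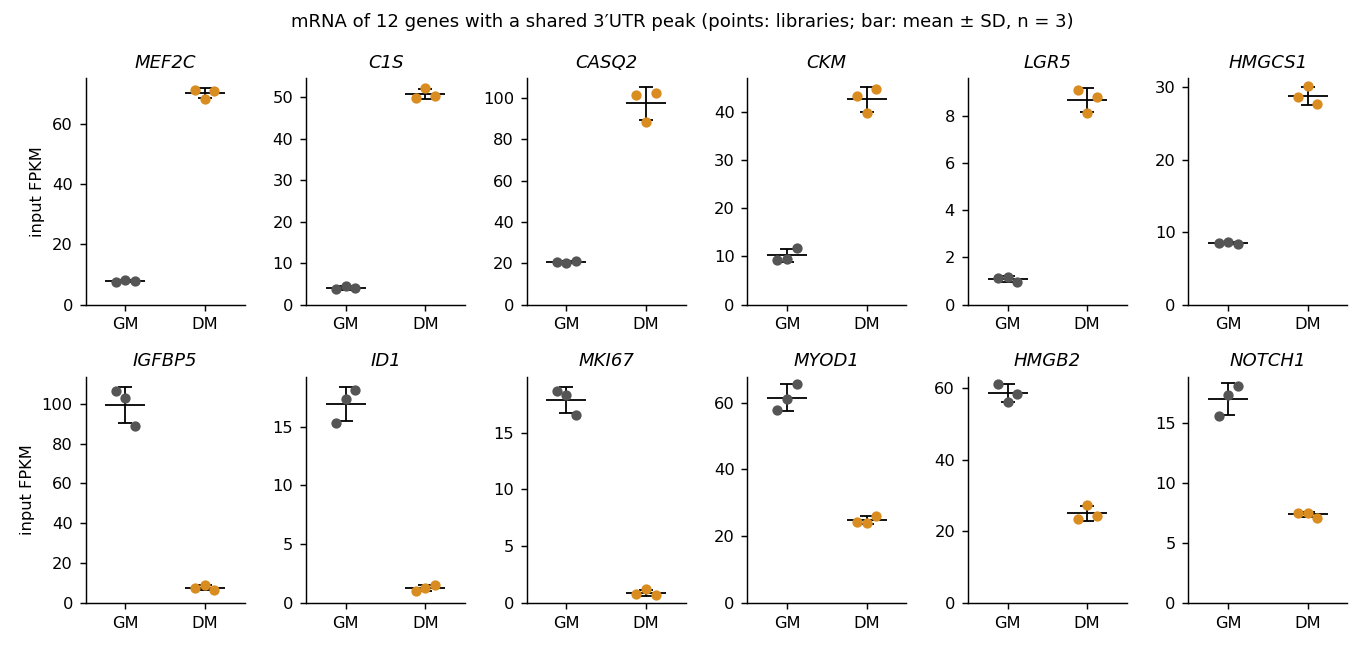
Input FPKM of 12 genes with a shared 3′UTR peak, 1 point per sample (GM grey, DM orange) with the mean ± SD (n = 3), each panel with its own axis from 0. In the upper row all DM samples lie above all GM samples, and in the lower row all lie below them, as for MYOD1 with 57.8 to 65.7 FPKM in GM and 24.0 to 26.1 FPKM in DM.

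Differences in fold enrichment and in mRNA were set side by side for the 4686 pairs in tested genes. The same input libraries enter the denominator of fold enrichment and the FPKM, so the measures are not independent, and what follows is a description. Of the 600 tested genes with a pair over 1.5 times higher in DM, mRNA was higher in 29 (4.83%) and lower in 55 (9.17%). Of the 482 with a pair over 1.5 times lower, mRNA was higher in 32 (6.64%) and lower in 19 (3.94%). In the 3156 genes with every pair within 1.5 the shares were 4.37% and 5.70%. The median log2 ratio of fold enrichment was -0.04 over the 221 pairs of genes with higher mRNA and 0.20 over the 278 pairs of genes with lower mRNA. Across all 4686 pairs Pearson's r was -0.105.

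Among comparable pairs, a higher fold enrichment with less mRNA in DM was largest in HMGB2, FGF22 and AURKA. HMGB2, a chromatin protein of cycling cells, had a fold enrichment of 3.03 in GM and 12.1 in DM, and mRNA of 61.3, 56.1 and 58.5 FPKM in GM and 23.4, 27.4 and 24.3 FPKM in DM. The DM samples were all below the GM samples (log2 fold change -1.198 ± 0.07, adjusted p = 4.96e-06). AURKA, the kinase that matures the mitotic spindle poles, had 2.91 and 10.6, with mRNA of 10.16 ± 0.48 FPKM in GM and 2.41 ± 0.12 FPKM in DM. FGF22, a fibroblast growth factor, had 19.8 and 76.7, the highest DM value of all members, with mRNA of 1.73 ± 0.33 and 0.742 ± 0.23 FPKM. The call of FGF22 was lost without DM replicate 2 (log2 fold change -0.55) or without GM replicate 3 (-0.56), where the fold fell under 1.5.

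The reverse, a lower fold enrichment with more mRNA, was largest, among the same pairs, in SEPT4, IGF1 and SDK1. SEPT4, a septin, had 12.5 in GM and 2.58 in DM, and SDK1, a cell adhesion molecule, 17.4 and 4.15. IGF1, the growth factor that drives muscle growth, had a fold enrichment of 22.9 in GM and 4.79 in DM. Its mRNA was 0.224, 0.358 and 0.216 FPKM in GM and 2.42, 1.87 and 2.63 FPKM in DM, with no overlap (log2 fold change 1.38 ± 0.11, adjusted p = 2.71e-05). The IGF1 value of 22.9 equals, at 3 digits, a whole multiple of the GM step of 1.089.

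Both measures were higher in DM in COLEC12, FBXO32 and ST8SIA2. COLEC12, a scavenger receptor with a collagen-like stretch, had a fold enrichment of 4.08 and 9.35 and mRNA of 3.52 ± 0.13 and 12.3 ± 0.84 FPKM. FBXO32, the muscle ubiquitin ligase atrogin-1, had 2.88 and 6.54, with mRNA of 1.70, 1.95 and 1.26 FPKM in GM and 4.27, 4.82 and 4.88 FPKM in DM. ST8SIA2, a polysialyltransferase, had 3.20 and 6.31 in 1 of its 2 pairs and 4.29 and 4.96 in the other. Both were lower in DM in MAP1LC3C, in PTPRN, of the receptor-type phosphatase family (7.62 and 2.98), and in PM20D1, a peptidase (4.42 and 2.21).

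**Figure D4:**
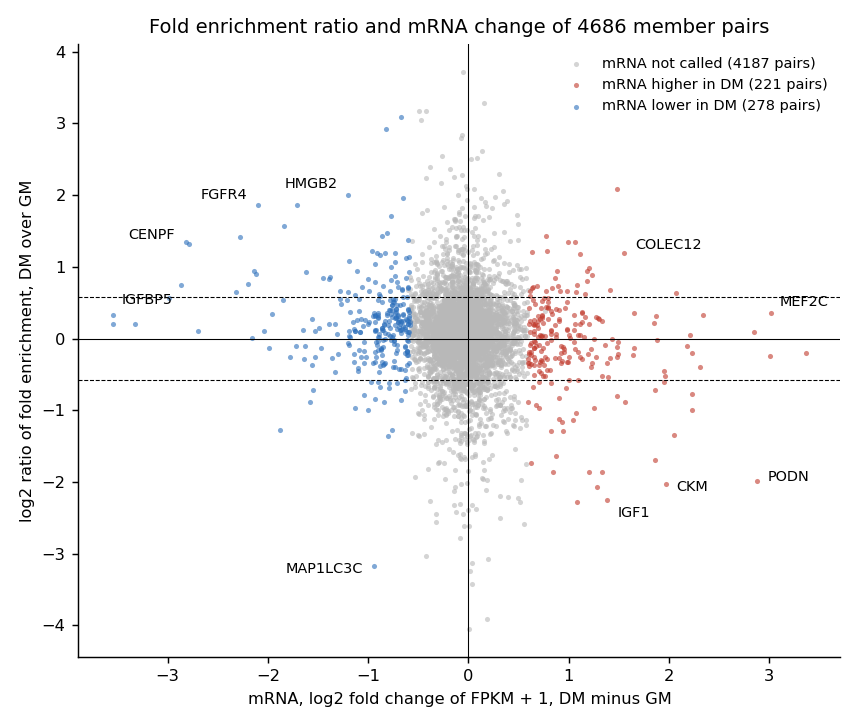
Log2 ratio of fold enrichment, DM over GM (y axis), against the log2 fold change of mRNA on the FPKM + 1 scale, DM minus GM (x axis), for the 4686 pairs in tested genes, coloured by the mRNA call and with ratios of 1.5 dashed. The cloud has little slope (r = -0.105), and HMGB2, CENPF and FGFR4 lie at the upper left while CKM, IGF1 and PODN lie at the lower right.

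In the gene lists that follow, counts stand beside 14.2% of all shared pairs with a higher and 10.8% with a lower fold enrichment, and beside 4.89% of all tested genes with higher and 6.88% with lower mRNA. Muscle regulators held 20 pairs in 18 genes, 17 of them tested. MEF2C rose, and ID1, ID3, MYOD1 and EYA2 fell. ID3, like ID1 a blocker of MYOD1, had 97.9, 102 and 107 FPKM in GM and 30.7, 28.3 and 32.3 FPKM in DM. In fold enrichment 1 pair was over 1.5 times higher and 2 were lower. MSC, a basic helix-loop-helix repressor, had 4.99 and 9.15, MEF2D 3.26 and 1.98, and SRF, the serum response factor, 3.63 and 1.72 in 1 of its 2 pairs. The mRNA of MSC, MEF2D and SRF was not called.

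Sarcomere and contraction genes held 26 pairs in 25 genes. Of 23 tested members, 11 rose and none fell by limma (18 and 3 at an unadjusted p under 0.05 with no fold limit). Their median log2 fold change was 0.51, beside -0.05 over all tested genes. Of all 61 tested genes of the list, members or not, 38 rose and 1 fell. CASQ2, the calcium store protein of the sarcoplasmic reticulum, had 20.6, 20.3 and 21.2 FPKM in GM and 101, 88.5 and 103 FPKM in DM, with a fold enrichment of 2.61 and 2.42. MYOM2, which crosslinks thick filaments at the M band, rose from 8.06 ± 0.53 to 34.2 ± 0.73 FPKM, with 11.5 and 8.02.

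Over the 26 sarcomere pairs the median fold enrichment was 5.19 in GM and 4.19 in DM, with 3 pairs over 1.5 times higher and 6 lower. The largest fall was in CKM, muscle creatine kinase, whose pair at chr18:52956472-52956711 (minus strand, DM peak) had 8.17 in GM and 2.01 in DM, a GM over DM ratio of 4.06. Its mRNA was 9.23, 9.52 and 11.8 FPKM in GM and 43.2, 39.7 and 44.7 FPKM in DM, with no overlap (log2 fold change 1.97 ± 0.09, adjusted p = 1.76e-06). CACNG1, a subunit of the muscle calcium channel, had 18.5 and 5.95 in peaks of 389 bases in GM and 866 bases in DM. Its mRNA was 1.42, 1.03 and 1.69 FPKM in GM and 3.59, 3.40 and 3.02 FPKM in DM. PYGM, muscle glycogen phosphorylase, had 6.63 and 2.78. Its mRNA was 1.88, 1.95 and 2.04 FPKM in GM and 3.59, 2.82 and 3.25 FPKM in DM, 1.65-fold higher by the means with no overlap, but the log2(FPKM + 1) change of 0.51 ± 0.08 was under the limit for a call (adjusted p = 0.00161).

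Genes of mitosis held 22 pairs in 20 genes, of which 17 fell and none rose by limma (20 and 0 at an unadjusted p under 0.05). The median log2 fold change of these members was -1.68. Of all 70 tested genes of the list, members or not, 67 fell and none rose. The median fold enrichment of the 22 pairs was 3.69 in GM and 4.77 in DM, with 6 pairs over 1.5 times higher and 1 lower. CENPF, a kinetochore protein, had 8.76, 8.65 and 6.93 FPKM in GM and 0.250, 0.432 and 0.196 FPKM in DM, while the fold enrichment of its 330-base peak was 3.99 and 10.1. CENPA, the histone of the centromere, had 5.08 and 8.52, with 8.73 ± 0.36 and 0.342 ± 0.13 FPKM. Genes of DNA replication held 20 pairs in 19 genes, of which 10 fell and none rose by limma (15 and 1 at an unadjusted p under 0.05). Of all 53 tested genes of that list, 25 fell and none rose. Of the 20 pairs 4 were over 1.5 times higher and 3 lower. MCM3 and MCM10, parts of the replication machinery, fell by 1.03 ± 0.06 and 0.90 ± 0.07 on the log2 scale, with a fold enrichment of 8.14 and 6.80 in MCM3 and 2.63 and 3.38 in MCM10. CHAF1B, a chromatin assembly factor, fell by 0.85 ± 0.09 at 5.51 and 5.43. LIG1, DNA ligase 1, had 11.2 and 25.6. GINS4 had 4.03 and 8.06 in 1 pair and 5.44 and 9.58 in the other. CDC6, which loads the replicative helicase, had 9.80 and 2.56 in peaks that shared 1 base, and its mRNA was 1.14, 1.32 and 0.986 FPKM in GM and 0.299, 0.631 and 0.531 FPKM in DM, a log2 fold change of -0.53 ± 0.11 that missed the 1.5-fold limit.

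Transcripts of the m6A machinery carried shared 3′UTR peaks too. The 16 members, among them METTL3, METTL14, VIRMA, ZC3H13, FTO, YTHDC1, YTHDF3, IGF2BP1 and IGF2BP3, held 17 pairs, and by limma none was called for mRNA in either direction, nor under either other scaling, although 2 were higher and 7 lower at an unadjusted p under 0.05. METTL14 had 9.56, 9.66 and 8.08 FPKM in GM and 9.76, 8.14 and 9.36 FPKM in DM, overlapping groups, and a fold enrichment of 3.32 and 5.01 in a peak that was 540 bases long in GM and 1439 bases long in DM. FXR2, a paralogue of the fragile X protein, had 5.55 and 8.88, and PRRC2A, a reader, 5.04 and 2.84. Of 22 tested genes of deadenylation, decapping and decay, POP1, an RNase P subunit, fell by 0.88 ± 0.10 and had a fold enrichment of 3.81 and 8.52. ZC3H12A, the endoribonuclease Regnase-1, had 7.26 and 23.4, and SMG6, the nonsense-mediated decay endonuclease, 4.36 and 1.64 in 1 of its 2 pairs. The 3 higher and 3 lower pairs of this list were out of 25. None of 11 cleavage and polyadenylation genes was called for mRNA by limma (0 higher and 3 lower at an unadjusted p under 0.05), and of their 11 pairs 1 was higher and 1 lower. SYMPK, the scaffold symplekin, had 32.7 and 9.82, and SSU72, a phosphatase of that complex, 1.27 and 1.93.

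Sterol synthesis and uptake held 12 pairs in 10 genes, and 7 of these rose and none fell by limma (7 and 0 at an unadjusted p under 0.05). Of all 27 tested genes of the list, 15 rose and 2 fell. HMGCS1, which makes the precursor of mevalonate, had 8.54, 8.57 and 8.34 FPKM in GM and 28.7, 30.1 and 27.7 FPKM in DM. FDFT1, squalene synthase, rose by 1.64 ± 0.08 on the log2 scale. The fold enrichment of their peaks was close in both groups, with 1.41 and 1.29 in HMGCS1 and 4.96 and 4.23 in FDFT1. SREBF2, the transcription factor over this pathway, rose by 0.99 ± 0.06 and had 1.74 and 4.42 in 1 pair and 3.56 and 2.84 in the other. MYLIP, a ubiquitin ligase, had 2.41 and 4.05 and SCAP, the sterol sensor, 3.56 and 2.31, and neither was called for mRNA.

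TGF-β and BMP signalling held 23 pairs in 19 genes, of which 7 were over 1.5 times higher in DM and none lower, beside 14.2% and 10.8% of all shared pairs. In 5 of these 7 pairs, all but those of INHBB and SMAD3, the DM peak was over 1.5 times as long as the GM peak, a class in which 25.7% of all members were higher and 5.43% lower, and the part of length in the count was not tested. Besides GDF15, the ligand BMP2 had 3 pairs, with 3.06 and 3.78, 1.94 and 3.50, and 2.18 and 4.26. BAMBI, a decoy receptor, had 6.2 and 19.2 in a gene of 0.324, 0.276 and 0.257 FPKM in GM and 0.380, 0.212 and 0.295 FPKM in DM, under the filter. SMAD1 (1.87 and 2.85) and SMAD3 (3.47 and 6.15), which carry the signal to the nucleus, and INHBB, an activin subunit (4.22 and 7.34), made up the rest. For mRNA INHBB rose by 1.18 ± 0.07 and CHRD, a BMP antagonist, by 1.12 ± 0.06, and TGFB3 fell by 0.76 ± 0.05, out of 18 tested.

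**Figure D5:**
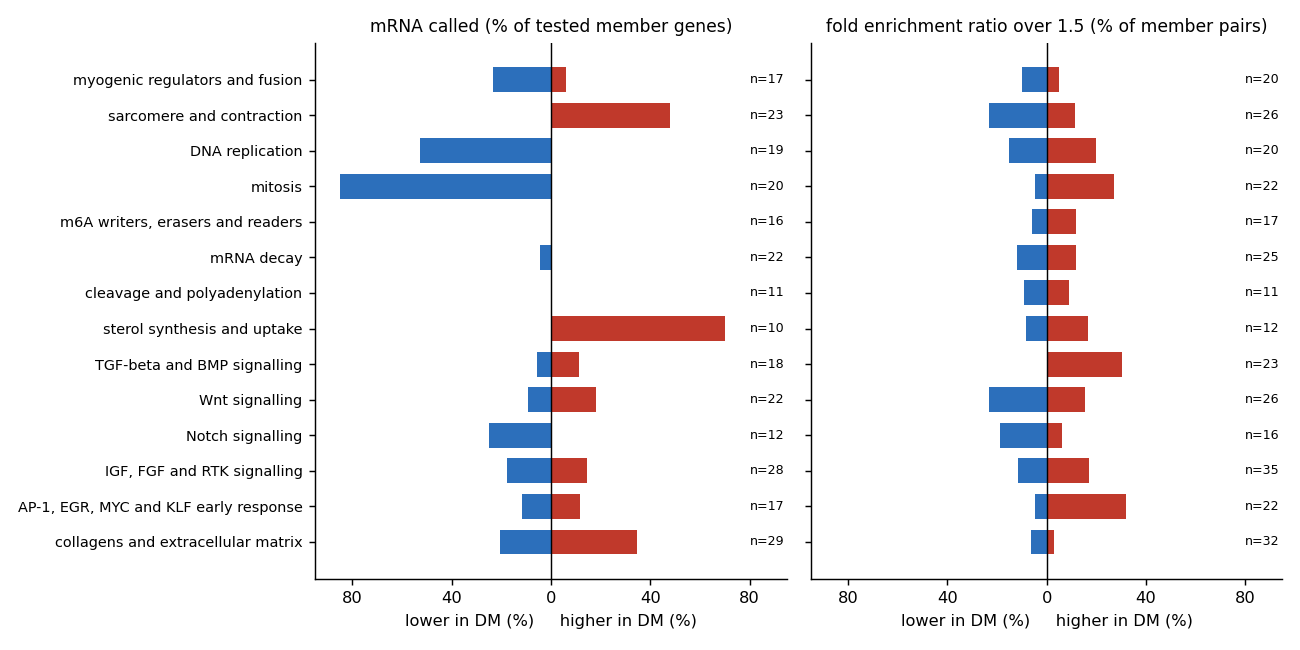
For 14 gene lists, the share (%) of tested member genes called higher (red, right) or lower (blue, left) in DM for mRNA, and the share of member pairs with a fold enrichment over 1.5 times higher or lower in DM, with n at the right of each row. The mRNA of sarcomere and sterol genes leans to DM and that of mitosis and replication genes to GM, and in fold enrichment 7 of 23 TGF-β and BMP pairs were higher and none lower.

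Wnt signalling held 26 pairs in 23 genes, with 4 higher and 6 lower, the former near the 14.2% of all shared pairs. The secreted inhibitor SFRP1 rose 10.6-fold in mean FPKM, with 0.717, 0.619 and 0.549 FPKM in GM and 6.57, 6.96 and 6.44 FPKM in DM. Its 3 pairs had 2.18 and 1.90, 2.59 and 1.52, and 2.90 and 1.46. LGR5, the receptor for R-spondins, rose from 1.08 ± 0.12 to 8.65 ± 0.51 FPKM with its fold enrichment at 4.45 and 4.62. SFRP4 and FZD7 also rose, and DKK2 and FZD3 fell, out of 22 tested, while scaled to TPM 6 were higher and 1 lower. AXIN2, a target and inhibitor of the pathway, had 16.3 and 9.58 in 1 pair and 6.53 and 2.88 in the other, at a mean under 0.5 FPKM, and TCF7 had 2.08 and 3.55. In Notch signalling the receptor NOTCH1, the target HES1 and the glycosyltransferase LFNG fell and none rose, out of 12 tested (4 and 0 at an unadjusted p under 0.05 by limma), and of 16 pairs 1 was higher and 3 lower. NOTCH1 had 15.6, 17.3 and 18.2 FPKM in GM and 7.51, 7.54 and 7.13 FPKM in DM, with a fold enrichment of 4.14 and 3.11. JAG2, a ligand, had 40.3 and 13.8 at a mean under 0.5 FPKM, NCSTN, a γ-secretase subunit, 5.24 and 3.12, and NUMBL 5.71 and 3.50 in 1 of 2 pairs.

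Of 28 tested members in IGF, FGF and receptor tyrosine kinase signalling, 4 rose and 5 fell (7 and 5 scaled to TPM), and of 35 pairs 6 were higher and 4 lower. FGFR4, a receptor of the myoblast stage, had 3.87, 3.41 and 3.56 FPKM in GM and 0.0261, 0.114 and 0.0950 FPKM in DM. Its fold enrichment was 2.04 and 7.45, in peaks of 270 bases that shared 150. FGF10 rose from 0.736 ± 0.27 to 3.34 ± 0.15 FPKM and had 14.2 and 3.92 in 1 of its 2 pairs. The list of AP-1, EGR, MYC and KLF early response genes was broad and also held MXD and SOCS genes. Of its 22 pairs 7 were higher and 1 lower, beside 14.2% and 10.8% of all shared pairs. Of its 17 tested genes 2 rose and 2 fell, beside 4.89% and 6.88% of all tested genes. FOSB had 13.1 and 30.9 in 1 of 2 pairs at a mean under 0.5 FPKM. MXD3, a partner of MAX, had 3.81 and 10.6, with 1.22, 0.669 and 1.06 FPKM in GM and 0.124, 0.130 and 0.103 FPKM in DM. KLF13 rose and had 5.11 and 8.31, and EGR3 had 6.90 and 2.38 with overlapping FPKM. NR4A1 rose and had 9.80 over 1110 bases in GM and 7.99 over 391 bases in DM.

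Collagens and extracellular matrix held 32 pairs in 29 genes, and 10 rose and 6 fell (11 and 4 scaled to TPM), beside 4.89% and 6.88% of all tested genes. Of the pairs 1 was over 1.5 times higher and 2 lower, beside 14.2% and 10.8% of all shared pairs. NID1, which links laminin to collagen IV, had 96.3, 98.1 and 102 FPKM in GM and 222, 220 and 212 FPKM in DM. COL8A1 rose 5.12-fold in mean FPKM and ADAMTS1, a secreted protease, fell 2.64-fold. COL5A3, with 3.63 and 5.71, THBS3, with 4.70 and 3.10, and LAMB2, with 14.6 and 7.74, were the pairs past 1.5. Fibroblasts make these proteins too, and the part of the fibroblast markers, whose sums are given above, in these changes was not tested.

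In 437 genes there were 2 or more members: 391 with 2 pairs, 40 with 3, 5 with 4 and 1 with 5. All pairs stayed within 1.5 in 256 of them, and 155 had at least 1 pair past 1.5 and another within it. A further 17 had every pair past 1.5 in 1 direction. Pairs in opposite directions were found in 13 genes, some of which are also among the 155. MEIS3, a homeobox gene, had 4 pairs, all with lower values in DM, from 12 and 6.66 to 3.63 and 2.89. NTRK2, the receptor for BDNF, also had 4, from 5.55 and 4.92 to 4.17 and 6.03. In 603 genes that also held a shared pair in the 5′UTR, r between the log2 ratios of the 2 ends was 0.107.

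The gene with 5 pairs was SORCS3, a sorting receptor of neurons, whose mRNA was near or at 0 in every sample. It was listed at 0.0136, 0.00231 and 0 FPKM in GM and 0.0115, 0.0104 and 0 FPKM in DM, and its 5 peaks lay up to 593237 bases before the annotated end. Whether these peaks belong to SORCS3 transcripts was not tested, and their place in its 3′UTR rests on the peak annotation alone. Their fold enrichment was 15.2 and 9.58 in the highest and 1.53 and 2.00 in the lowest.

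At the edge of the rule the overlap was 1 base. INO80 and FBRSL1 entered with 1 shared base, at a fold enrichment in GM and DM of 1.68 and 1.75, and 1.52 and 1.65. The nearest 3′UTR neighbours that stayed out were in HIST1H2BB, 3 bases apart with 7.62 and 2.63, in TCTN1, 23 bases apart with 3.63 and 1.77, and in ATP6V1G2, 28 bases apart with 3.63 and 2.60.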

How the data were processed

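The authors trimmed reads with Trimmomatic, aligned them with HISAT2 to ARS-UCD1.2 and kept unique, non-duplicate alignments with Sambamba, and the submitters' processing notes also name cutadapt and fastp. They called peaks with exomePeak on the pooled libraries of each group and annotated them with ChIPseeker. The deposited peak lists give fold enrichment, a linear ratio of IP over input, and log10 of the false discovery rate. The authors computed deposited FPKM values per gene with StringTie for the 6 inputs. Depth per value is unknown from these files, so precision is the spread of 3 samples.

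Peaks were paired in Python 3.11.15 with pandas 2.3.3 and numpy 2.4.6. A ratio of fold enrichment is called higher or lower past 1.5. DM and GM inputs were compared with limma 3.58.1 (R 4.3.3), with a variance trend, on log2(FPKM + 1) in genes whose mean FPKM reached 0.5. Adjustment followed Benjamini and Hochberg over all tested genes, and calls needed an adjusted p under 0.05 and a fold over 1.5. The authors' own edgeR test ran on counts, which were not used here. A log2 change with a pseudocount of 1 understates low genes. Coordinates are 1-based. The pairing and the test were tested on simulated data.

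The members, the 14 gene lists and the rule for naming genes were chosen with earlier results of these data known. Named were the 4 highest comparable pairs, the 5 largest rises and falls of fold enrichment and of mRNA, the 3 largest called changes of each kind per list, the 3 genes with most pairs, the 3 largest pairs of each combination of directions, and MYOD1 and CKM. CCKAR, EYA2, FZD7, DKK2, FZD3, SMAD1, SMAD3 and the m6A genes without values are named beyond it. Alternatives covered pseudocount, filter, scaling, replicate block, variance trend, thresholds, each sample left out, overlap and annotation of the pairs. No genome sequence was used. Results that need items withheld for evaluation are not reported here.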

Additional observations from a re-analysis of the deposited data

How the results depend on the processing

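The number of pairs stayed within 1.5 times of 5146 under the stricter definitions, from 4133 where the overlap covered 50% or more of each peak to 4828 with both peaks annotated to a 3′UTR. For fold enrichment, 744 higher and 602 lower pairs became 267 and 245 at a ratio over 2. The higher pairs numbered 465 (against 492 lower) with an overlap of at least 50%. In restrictions chosen after seeing the data, 354 were higher and 435 lower where exon lengths were within 1.5 of each other, and 325 were higher and 257 lower in genes of 5 FPKM or more. Centred on the median of all shared pairs the counts were 607 and 710. Centring takes out a shift common to all pairs, so it is no separate check of the lean to higher values in DM. The lean did not hold under strict overlap or like length. It held in genes of 5 FPKM or more and at a false discovery rate under 0.001 in both lists (522 and 413). It also held at a fold enrichment of at least 2 in both lists (605 and 525).

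For mRNA, 199 higher and 254 lower member genes became 342 and 240 scaled to TPM and 232 and 216 with size factors. At a fold over 2 they were 81 and 82. Leaving out 1 sample gave 199 to 213 higher and 253 to 257 lower. The replicate numbers did not pair them (correlations of same-numbered deviations -0.08, -0.12 and -0.21), and with the replicate block the counts were 200 and 255. Of 883 values of the 59 called named genes under alternatives, none reversed and 19 missed a threshold, 17 of them the fold over 2 and the other two FGF22 without a sample.

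Fold enrichment has no replicates here, and its read counts are unknown here.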

Other observations

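Repeated values of fold enrichment marked the members of scarce transcripts. The GM value 6.53 occurred in 74 pairs whose genes had a median of 0.713 FPKM, 9.8 in 63 pairs (0.587 FPKM) and 7.62 in 57 pairs (0.663 FPKM). In DM, 8.52 occurred in 69 pairs (0.288 FPKM), 7.45 in 63 (0.802 FPKM) and 9.58 in 56 (0.774 FPKM). Of the named pairs, 29 had a GM value and 28 a DM value that was a whole multiple of its list's step at 3 digits. These included the DM values of all 5 named pairs with the largest ratio of DM over GM (GDF15, IPO9, GDPD3, SHB and C5H22orf23) and the GM values of all 5 with the largest ratio in the other direction (MAP1LC3C, RING1, PPP1R16A, PLCD3 and EHMT2). The DM values of PLCD3 (4.26) and EHMT2 (6.39) were such multiples too. So were the GM values of PODN, CACNG1, JAG2, SYMPK, SDK1 and CDC6 and that of FGF10 at 14.2. The same held for the DM values of AURKA, BAMBI, CENPA, FGF22, LIG1, MKI67, MXD3, POP1 and ZC3H12A. In FOSB all values of both pairs were such multiples. Above 10 the 3 digits leave 1 decimal, and a match there says less.

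In 135 genes with a mean under 0.1 FPKM there were 143 pairs, with a median fold enrichment of 6.59 in GM and 8.52 in DM, 45 of them over 1.5 times higher in DM and 23 lower.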
